A study of Mus musculus with 12 samples.

Results

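Endothelial identity and junction genes are the transcripts by which the lining of blood vessels is recognised and by which its cells hold on to each other. The set described here has 10 members, taken by mouse symbol and matched to 10 Ensembl identifiers of a table that holds 55487 identifiers, of which 16974 had enough counts to be tested. All 10 members passed that filter on low counts. The junction members are Cdh5, Pecam1, Cldn5 and Pcdh12, the receptors are Tie1, Tek and Cd93, and the other surface or secreted members are Emcn, Plvap and Vwf. The members were chosen by their edgeR results for regorafenib, so in that contrast their values, and any count of members called, describe the choice and support nothing. The split fell between Tie1, the last member inside an adjusted p of 0.05 (adjusted p 0.0245 by edgeR), and Cdh5, the first outside it (0.0616).

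The tumours were grown from Sq-1979, a mouse head and neck squamous cell carcinoma line, injected subcutaneously with Matrigel into C3H/HeN mice, all male and 6 weeks old. Dosing began 20 days later in 4 groups of 3 samples: regorafenib at 5 mg/kg per day together with anti-PD1 (called the combination), regorafenib alone at the same dose, anti-PD1 alone, and vehicle. Polyadenylated RNA of the tumours was counted per gene, with 22591835 to 28209036 counts per library. All tumours come from 1 cell line at 1 site of implantation, the vessels and immune cells belong to the host, and nothing in the labels ties each sample to a mouse of its own, so the p-values measure the spread between these samples. The squamous markers Krt5, Krt14, Krt6a, Trp63, Dsg3, Cdh1 and Epcam were all tested by edgeR. With regorafenib 1 of them was lower, beside 3.32% of all tested genes. Their summed levels were 10667 to 13019.8 CPM in the 6 regorafenib-treated libraries and 11044 to 15789 CPM in the other 6. CPM is a count scaled to the size of its library with TMM factors, and a value after ± is the SD over n = 3 libraries unless it is called a standard error (SE).

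Endothelial cells are held together by adherens junctions built on VE-cadherin, the product of Cdh5, and by tight junctions whose strands contain claudin 5, the product of Cldn5. The angiopoietin receptor TIE2, encoded by Tek, and its partner TIE1 act together with the VEGF receptors to keep vessels quiet or to let them sprout, and tumour vessels are known for loose junctions and uneven receptor levels. Regorafenib is a kinase inhibitor whose known targets include VEGF receptors, TIE2, PDGF receptors and RAF kinases. Anti-PD1 is an antibody that blocks an inhibitory receptor of T cells.

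Promoter windows are shown because 3 of the 4 members inside the split, and Tek outside it, had an entry in the RefSeq promoter table (build GRCm38.p6), and because factors of the ETS family, whose core letters are GGAA, are known to drive endothelial genes. Capitals mark GGAA, or TTCC where the same letters lie on the other strand, and the bases run 5′ to 3′ on the strand of the gene up to its first annotated exon. The windows are chr3:137340828-137341066 on the plus strand for Emcn, chr16:18776597-18776846 on the plus strand for Cldn5 and chr4:94739039-94739288 on the plus strand for Tek.
Emcn: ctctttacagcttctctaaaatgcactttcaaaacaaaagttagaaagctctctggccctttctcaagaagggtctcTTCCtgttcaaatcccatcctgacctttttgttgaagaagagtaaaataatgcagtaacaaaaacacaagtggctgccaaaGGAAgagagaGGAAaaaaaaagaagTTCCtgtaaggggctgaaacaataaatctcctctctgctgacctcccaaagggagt
Cldn5: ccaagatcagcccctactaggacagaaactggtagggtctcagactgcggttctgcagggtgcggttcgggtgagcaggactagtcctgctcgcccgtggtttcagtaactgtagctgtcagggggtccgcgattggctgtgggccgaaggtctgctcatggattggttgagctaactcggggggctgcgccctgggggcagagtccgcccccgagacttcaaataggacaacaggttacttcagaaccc
Tek: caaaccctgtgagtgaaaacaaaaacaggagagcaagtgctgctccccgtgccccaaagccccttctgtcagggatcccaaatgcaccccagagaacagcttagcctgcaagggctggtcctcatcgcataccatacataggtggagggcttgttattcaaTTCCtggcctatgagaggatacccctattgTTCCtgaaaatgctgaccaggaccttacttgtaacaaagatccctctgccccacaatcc
The Emcn window held 4 matches to the 4 letters on both strands together, Tek held 2 and Cldn5 held 0. The Tie1 entry held 7 matches in the 250 bases before its start. It is not printed, since annotated exons begin after its first 38 bases, which held 2 of the 7 matches. Of 32851 promoter windows of 250 bases in the table, 93.4% held at least 1 match, with a median of 3, so a match sets no window apart. By number of matches, 3.82% of all windows held at least as many as Tie1, 33.4% as Emcn and 76.8% as Tek. The letters GATAA, the core of GATA factor sites, were in 0 of the 4 member windows on either strand and in 22.6% of all windows.

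In vehicle tumours the members spanned a wide range of levels. Divided by the length of the annotated exons, Plvap, which forms the diaphragms of fenestrae and caveolae, was highest at 15.97 ± 1.72 CPM per kb. Cdh5 followed at 5.92 ± 0.571, Pecam1 at 4.95 ± 0.563, Cd93 at 3.54 ± 0.117, Cldn5 at 3.45 ± 0.901, Tie1 at 2.26 ± 0.272 and Emcn at 1.57 ± 0.162 CPM per kb. Tek at 0.72 ± 0.251, Vwf at 0.599 ± 0.0176 and Pcdh12 at 0.441 ± 0.0623 CPM per kb closed the order. Ranges over the 3 vehicle libraries overlapped between the neighbours Cdh5 and Pecam1, Cd93 and Cldn5, Cldn5 and Tie1, and Tek and Vwf, and the other neighbours stood apart. Plvap was also first, and Pcdh12 last, in the mean level per kb of the combination, regorafenib and anti-PD1 groups. Vwf was 7th of the 10 in the combination and regorafenib groups, 8th with anti-PD1 and 9th with vehicle.

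The largest difference with regorafenib among the members was in Pcdh12, which encodes a protocadherin of endothelial junctions. Pcdh12 (ENSMUSG00000024440, chromosome 18, 38267089 to 38284402 on the minus strand) had 0.619, 0.418 and 0.688 CPM in the combination libraries, 0.803, 1.01 and 0.849 CPM in the regorafenib libraries, 2.29, 3.07 and 2.08 CPM in the anti-PD1 libraries, and 3.10, 2.44 and 2.47 CPM in the vehicle libraries. Every regorafenib-treated library was below every other library. The average regorafenib effect, which is the mean of regorafenib over vehicle and the combination over anti-PD1, was a log2 fold change of -1.84 ± 0.182 (SE), or 3.59-fold lower. These levels rest on 12 to 23 counts in the treated libraries and 54 to 80 counts in the others. In bulk tumour RNA, fewer endothelial cells and less of a transcript per endothelial cell cannot be told apart.

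Emcn and Cldn5 followed, each at about the same size. Emcn encodes the sialomucin endomucin of capillary and venous endothelium (ENSMUSG00000054690, chromosome 3, 137341067 to 137432185). It had 3.00, 3.93 and 3.88 CPM in the combination libraries, 3.34, 3.39 and 4.47 with regorafenib, 7.51, 6.26 and 4.99 with anti-PD1, and 7.51, 8.82 and 9.18 with vehicle. All 6 regorafenib-treated libraries were below the other 6, though anti-PD1 3 and regorafenib 3 came near each other. Its average regorafenib effect was a log2 fold change of -0.99 ± 0.144 (SE). Cldn5 (ENSMUSG00000041378, chromosome 16, 18776847 to 18778262) had 2.87, 2.44 and 3.37 CPM in the combination libraries, 2.62, 2.29 and 2.18 with regorafenib, 6.15, 3.92 and 5.71 with anti-PD1, and 5.83, 5.39 and 3.43 with vehicle. Again no treated library reached an untreated one, but combination 3 at 3.37 CPM and vehicle 3 at 3.43 CPM were nearly level. Its average effect was -0.95 ± 0.178 (SE, log2).

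Tie1, the receptor that modulates TIE2 signalling (ENSMUSG00000033191, chromosome 4, 118471191 to 118490061 on the minus strand), had a smaller difference. Its levels were 5.48, 7.41 and 7.75 CPM in the combination libraries, 7.74, 6.68 and 7.01 with regorafenib, 8.57, 8.60 and 9.27 with anti-PD1, and 9.65, 12.28 and 11.3 with vehicle. The 6 treated libraries were all below the other 6, with an average effect of -0.49 ± 0.112 (SE, log2). Its mean was 8.81 ± 0.394 CPM with anti-PD1 and 11.1 ± 1.34 CPM with vehicle, so the group without either drug stood highest.

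By edgeR at an adjusted p under 0.05 over all 16974 genes, 4 of the 10 members, Pcdh12, Emcn, Cldn5 and Tie1, were lower in the average regorafenib effect and 0 were higher, beside 9.49% of all tested genes called, 3.32% lower and 6.16% higher. In the same 4 members all 6 treated libraries lay below all 6 others, as they did in 1.77% of all tested genes. The median log2 fold change of the 10 members was -0.41, against 0.0030 over all tested genes. Since the members were set apart by this contrast, these counts, and those with a library left out, describe the choice and are no test of it. Pcdh12, Emcn and Cldn5 were called in all 12 fits that leave out 1 library. Tie1 was called in 7 of them and not when combination 2, anti-PD1 2, anti-PD1 3, vehicle 2 or vehicle 3 was absent.

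**Figure D1:**
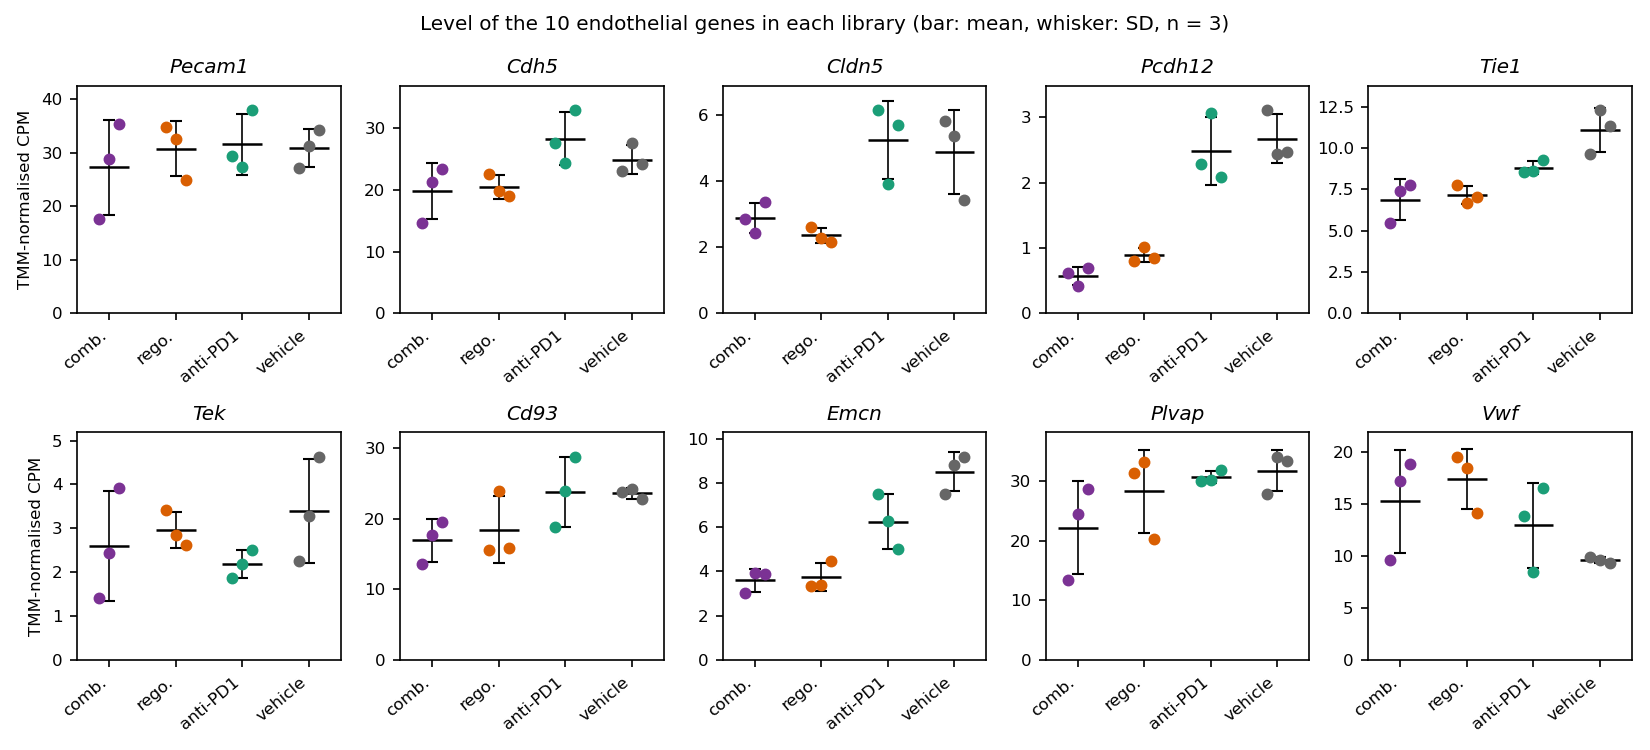
Level of each of the 10 members in TMM-normalised CPM (vertical axes, from 0) in the 3 libraries of the combination (comb.), regorafenib (rego.), anti-PD1 and vehicle groups, with a bar for the mean and a whisker for the SD. In Cldn5, Pcdh12, Tie1 and Emcn the 6 regorafenib-treated libraries lie below the other 6, while in Pecam1, Tek and Plvap the groups overlap.

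The remaining junction members did not separate in that way. Cdh5 (ENSMUSG00000031871, chromosome 8, 104101625 to 104144511) had 14.7, 21.3 and 23.3 CPM in the combination libraries, 22.6, 19.8 and 18.9 with regorafenib, 27.6, 24.3 and 32.8 with anti-PD1, and 22.9, 27.6 and 24.1 with vehicle. Within each background the treated libraries were the lower ones, and combination 3 lay above vehicle 1. Its average effect of -0.40 ± 0.121 (SE, log2) was called by edgeR in 1 of the 12 fits that leave out 1 library, the one without combination 3. Pecam1, an adhesion molecule of endothelium that platelets and leukocytes also carry (ENSMUSG00000020717, chromosome 11, 106654217 to 106750628 on the minus strand), had 17.6, 28.8 and 35.3 CPM in the combination libraries, 34.7, 32.6 and 24.9 with regorafenib, 29.4, 27.3 and 37.9 with anti-PD1, and 27.2, 31.2 and 34.2 with vehicle. The 4 groups overlapped and the average effect was -0.11 ± 0.164 (SE, log2).

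The other receptors, Cd93 and Tek, were not called by edgeR. Cd93, a lectin-like receptor that binds the matrix protein MMRN2 (ENSMUSG00000027435, chromosome 2, 148436640 to 148443563 on the minus strand), averaged 16.97 ± 3.07 CPM with the combination, 18.5 ± 4.71 with regorafenib, 23.8 ± 5.01 with anti-PD1 and 23.7 ± 0.781 with vehicle, an average effect of -0.42 ± 0.143 (SE, log2). Regorafenib 2 at 23.9 CPM lay within the range of the vehicle libraries, and Cd93 was called without that library (log2 fold change -0.53) and without anti-PD1 1 (-0.49). Tek (ENSMUSG00000006386, chromosome 4, 94739289 to 94874976) had 1.41, 2.44 and 3.91 CPM in the combination libraries, 3.43, 2.86 and 2.62 with regorafenib, 1.87, 2.19 and 2.51 with anti-PD1, and 2.27, 3.28 and 4.63 with vehicle. The lowest and highest of the 12 libraries were combination 1 and vehicle 3, and the treated and untreated libraries overlapped. Its average effect was 0.02 ± 0.252 (SE, log2).

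Vwf was the member with the highest fold change. Vwf encodes von Willebrand factor, the large clotting glycoprotein that endothelial cells store and release (ENSMUSG00000001930, chromosome 6, 125546774 to 125686679). It had 9.63, 17.2 and 18.8 CPM in the combination libraries, 19.5, 18.4 and 14.1 with regorafenib, 13.8, 8.45 and 16.5 with anti-PD1, and 9.90, 9.63 and 9.33 with vehicle. All 3 regorafenib libraries were above all 3 vehicle libraries, as in 10.6% of all tested genes, while the combination and anti-PD1 libraries overlapped. Regorafenib over vehicle was 0.85 ± 0.277 (SE, log2) and the combination over anti-PD1 0.24 ± 0.275, with an average effect of 0.54 ± 0.195 that was called in 1 of the 12 fits that leave out 1 library, the one without combination 1 (log2 fold change 0.66). Megakaryocytes also make Vwf, and their part in its level was not tested. Of 7 platelet and megakaryocyte markers 2 had enough counts to be tested and neither was called, Gp9 and Gp1bb had 0 counts in all libraries, and the summed level of the list was 6.24 to 10.6 CPM in the regorafenib-treated libraries and 4.71 to 11.4 CPM in the others.

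Plvap, the most abundant member per kb (ENSMUSG00000034845, chromosome 8, 71497765 to 71511752 on the minus strand), averaged 22.2 ± 7.83 CPM with the combination, 28.2 ± 7.03 with regorafenib, 30.7 ± 1.06 with anti-PD1 and 31.7 ± 3.41 with vehicle. Combination 1 had 13.5 CPM and regorafenib 3 had 20.2 CPM, while the other 4 regorafenib-treated libraries had 24.4 to 33.2 CPM. Its average effect was -0.32 ± 0.177 (SE, log2).

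The average effect that split the members is the mean of the comparisons on each background, so the values on each background, and the counts of members called or set apart in them, restate that choice and are descriptions. Pcdh12 had log2 fold changes of -2.10 ± 0.262 (SE) for the combination over anti-PD1 and -1.58 ± 0.254 for regorafenib over vehicle. Emcn had -0.79 ± 0.203 and -1.19 ± 0.204 in these comparisons, Cldn5 -0.86 ± 0.25 and -1.05 ± 0.253, and Tie1 -0.36 ± 0.158 and -0.63 ± 0.158. For the combination over anti-PD1, 1 of 10 members, Pcdh12, was called lower by edgeR, beside 1.92% of all tested genes called, 0.224% lower and 1.70% higher. That call was lost when combination 2, anti-PD1 2 or anti-PD1 3 was absent. In this comparison the 3 combination libraries lay below the 3 anti-PD1 libraries in 6 members, Pcdh12, Cldn5, Emcn, Cdh5, Plvap and Tie1, as in 9.09% of all tested genes. For regorafenib over vehicle 0 of 10 were called by edgeR, beside 0.00589% of all tested genes. DESeq2, which was fitted to every gene with any count, called 4 members and 386 genes. By edgeR 5 members and 2398 of the 16974 genes had an unadjusted p under 0.05. The 3 regorafenib libraries lay below the 3 vehicle libraries in 5 members, Pcdh12, Emcn, Cldn5, Tie1 and Cdh5, as in 10.2% of all tested genes.

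**Figure D2:**
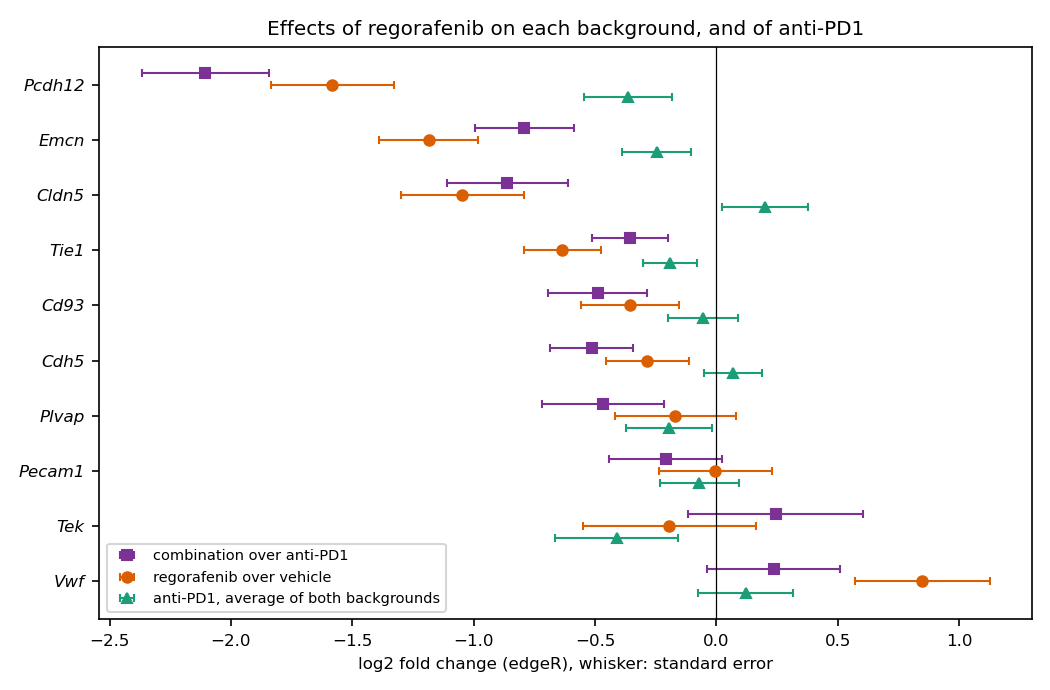
Log2 fold change (horizontal axis) of each member for the combination over anti-PD1 (squares), regorafenib over vehicle (circles) and the average anti-PD1 effect (triangles), with the standard error as a whisker, ordered by the average regorafenib effect. Pcdh12, Emcn, Cldn5 and Tie1 lie left of 0 on both backgrounds, Vwf lies right of it, and the anti-PD1 values lie between -0.41 and 0.20.

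Whether the regorafenib effect depended on anti-PD1 is a contrast that played no part in choosing the members. By edgeR 0 of 10 members had an interaction past the threshold, beside 0% of all tested genes, with 0 members and 449 genes at an unadjusted p under 0.05, and DESeq2 called 0 genes. The largest interaction estimates were -0.61 ± 0.389 for Vwf, -0.52 ± 0.359 for Pcdh12, 0.44 ± 0.506 for Tek and 0.39 ± 0.285 for Emcn (log2, SE). The standard errors of the 10 members ran from 0.223 for Tie1 to 0.506 for Tek, which with 3 samples a group leaves wide intervals around each estimate.

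Anti-PD1, averaged over both backgrounds, changed none of the 10 members past the threshold by edgeR, beside 0% of all tested genes. Of all genes 1485 and of the members 0 had an unadjusted p under 0.05, and DESeq2 called 3 genes, none of them a member. The estimates ran from -0.41 ± 0.253 (SE, log2) for Tek and -0.36 ± 0.18 for Pcdh12 (adjusted p 0.596 and 0.576 by edgeR) to 0.20 ± 0.177 for Cldn5 (adjusted p 0.698). Emcn and Tie1 had -0.25 ± 0.143 and -0.19 ± 0.111 (adjusted p 0.591 for both by edgeR). In 0 of the 10 members did the 6 anti-PD1-treated libraries lie all below or all above the other 6, beside 0.100% of all tested genes with all below and 0.112% with all above. The median log2 fold change of the 10 members was -0.13, against 0.011 over all tested genes.

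A level relative to Pecam1 and Cdh5, the members most widely used to mark all endothelium, shows how far each gene differed from them in the same library. The value is the log2 CPM of the gene minus the mean log2 CPM of that pair, and it is a description, since Cdh5 itself had an average regorafenib effect of -0.40. For Pcdh12 it was -4.54, -5.65 and -5.23 in the combination libraries, -4.99, -4.55 and -4.55 with regorafenib, -3.59, -3.03 and -4.03 with anti-PD1, and -2.98, -3.55 and -3.50 with vehicle. The treated libraries stayed below the untreated ones, with a difference of means of -1.47, as in 0.112% of all tested genes on this scale. Emcn and Cldn5 differed by -0.71 and -0.64 and Tie1 by -0.23, and for these 3 the treated and untreated libraries overlapped. For Vwf the value was -0.735, -0.528 and -0.605 in the combination libraries, -0.521, -0.462 and -0.623 with regorafenib, -1.04, -1.60 and -1.09 with anti-PD1, and -1.33, -1.60 and -1.61 with vehicle. All 6 treated libraries lay above all 6 others for Vwf, with a difference of means of 0.80, as in 5.54% of all tested genes. Tek differed by 0.26, Plvap by -0.096 and Cd93 by -0.16, with overlapping libraries.

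**Figure D3:**
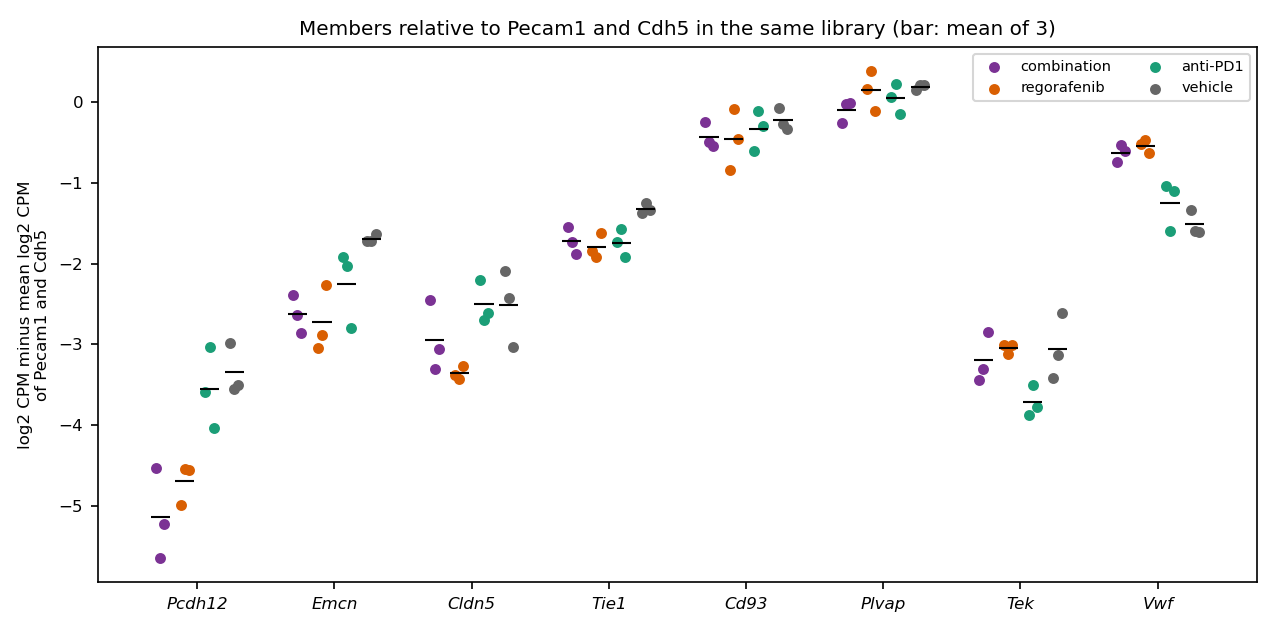
Log2 CPM of 8 members minus the mean log2 CPM of Pecam1 and Cdh5 in the same library (vertical axis) for the combination, regorafenib, anti-PD1 and vehicle libraries, with a bar for the mean of 3. Pcdh12 is lower and Vwf higher in all 6 regorafenib-treated libraries than in the other 6, with means that differ by -1.47 and 0.80.

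Within groups, a set of members went up and down together from library to library. After the mean of its group was taken off each library, Pecam1 had a Pearson r of 0.92 with Plvap, 0.91 with Cdh5, 0.88 with Tek, 0.86 with Vwf, 0.82 with Tie1 and 0.61 with Cd93 over the 12 libraries, which share the 4 group means and their normalisation. Its r was 0.13 with Cldn5, 0.047 with Emcn and -0.27 with Pcdh12. Combination 1 was the lowest of all 12 libraries in 7 of the 10 members. How often that held over all tested genes was not counted. Without combination 1 the values were 0.80 for Plvap, 0.79 for Cdh5, 0.75 for Tek, 0.73 for Vwf, 0.56 for Tie1, 0.43 for Cd93, 0.20 for Cldn5, -0.54 for Emcn and -0.18 for Pcdh12. These r are descriptions without a test. Leukocyte markers varied between the same libraries. The summed macrophage markers were 384, 589 and 1079.7 CPM in the combination libraries, 991, 1068 and 464 with regorafenib, 556, 556 and 1107 with anti-PD1, and 698, 551 and 616 with vehicle. The summed T cell markers were 51.5, 80.7 and 160.1 CPM in the combination libraries, 132.9, 155.6 and 60.02 with regorafenib, 88.8, 64.1 and 161.8 with anti-PD1, and 73.2, 62.5 and 59.2 with vehicle. Both sums, like Pecam1, were lowest of their group in combination 1 and regorafenib 3 and highest in combination 3 and anti-PD1 3, whereas vehicle 1 had the highest sums and the lowest Pecam1 of its group. Their part in the members' shared variation was not tested. For Pcdh12 the pooled SD within groups was 0.251 on the log2 scale, against 0.276 from counting alone at its 12 to 80 counts, so no relation could be read from it. For Pecam1 the SD was 0.323 against 0.0534 from counting, for Emcn 0.228 against 0.132 and for Cldn5 0.297 against 0.156.

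**Figure D4:**
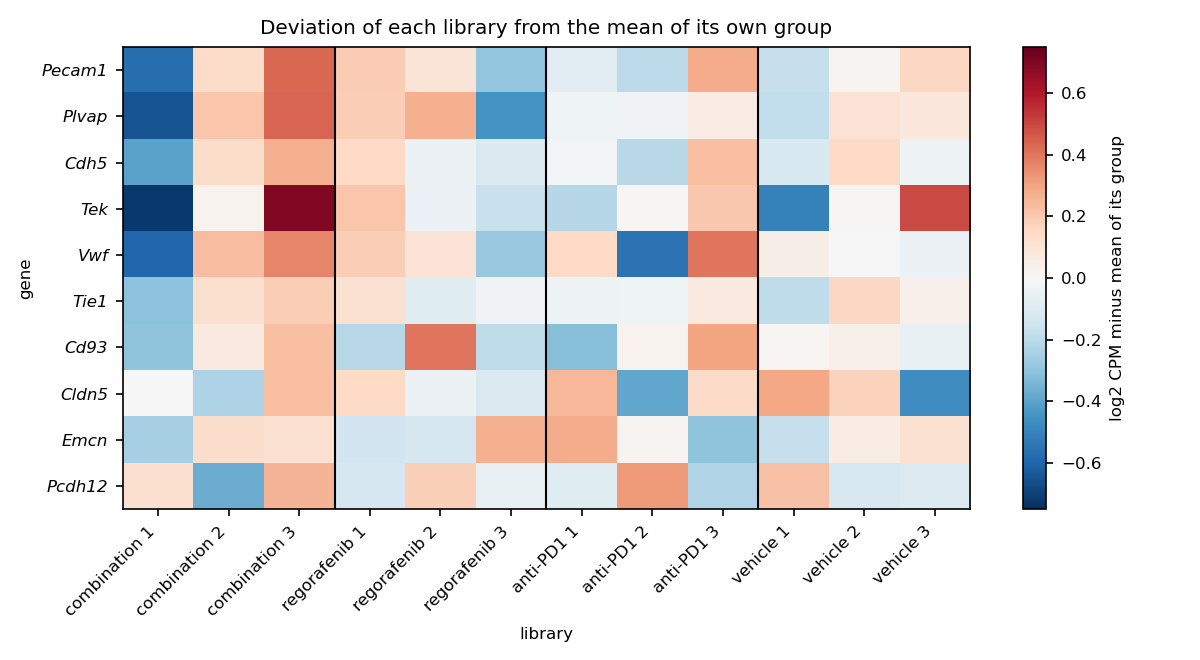
Deviation of each library (columns, grouped as combination, regorafenib, anti-PD1 and vehicle) from the mean of its own group, in log2 CPM, for the 10 members (rows). Pecam1, Plvap, Cdh5, Tek and Vwf are low together in combination 1 and high together in combination 3, while Cldn5 and Pcdh12 are not low in combination 1.

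Likeness over all 12 libraries, with the group differences left in, was compared for 12821 tested genes of at least 1 CPM. Genes without a symbol, predicted or clone names, and immunoglobulin and T cell receptor segments were left out. The genes whose log2 CPM was most like that of Pcdh12 were H3f3a (Pearson r 0.974), Atp6v1e1 (0.967), Chchd2 (0.966), Col13a1 (0.956) and C1qtnf1 (0.949). For Cdh5 they were Pcca (0.908), Zfp472 (0.886), Icam2 (0.870), Tpgs1 (0.868) and Leprot (0.862). Icam2, an adhesion molecule of endothelium and leukocytes, was the gene among these 10 that the endothelial lists below also hold. The r are descriptions over n = 12 libraries of 4 groups.

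Other genes of the same biology came from 7 lists of 79 genes, none of them a member, of which 78 were tested. In the average regorafenib effect 7 of the 78 were lower and 1 was higher by edgeR, or 8.97% and 1.28%, beside 3.32% and 6.16% of all tested genes. Their median log2 fold change was -0.080. The lists were chosen with earlier results of these data known, so the counts are not independent evidence of a direction.

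Gpihbp1, which anchors lipoprotein lipase on capillary endothelium, was the list gene with the smallest adjusted p. It had 3.58, 2.65 and 4.78 CPM in the combination libraries, 1.90, 4.13 and 3.54 with regorafenib, 12.09, 10.7 and 8.33 with anti-PD1, and 9.61, 8.63 and 7.83 with vehicle. All regorafenib-treated libraries were below all others, as in 1.77% of all tested genes. Gpihbp1 had a log2 fold change of -1.47 ± 0.209 (SE, adjusted p 0.00551 by edgeR). Of 23 tested genes of general endothelial identity, 2 fell, Gpihbp1 and Tmem204 (log2 fold change -0.80, adjusted p 0.0477 by edgeR). Tmem204 was called in 2 of the 12 fits that leave out 1 library, those without regorafenib 2 and without anti-PD1 1. Adgrl4 (-0.45, adjusted p 0.0648) and Myct1 (-0.58, adjusted p 0.126) did not pass by edgeR. The median of this list was -0.20.

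Among caveola genes, whose membrane pits carry Plvap diaphragms, 2 of 6 fell, the coat protein genes Cavin2 and Cavin3. Cavin2 averaged 101.3 ± 2.71 CPM with the combination, 97.2 ± 10.4 with regorafenib, 140.8 ± 26.2 with anti-PD1 and 164 ± 22.8 with vehicle, a log2 fold change of -0.62 ± 0.0996 (SE, adjusted p 0.00818 by edgeR). Cavin3 had -0.34 (adjusted p 0.0178), and Cavin1 (-0.11, 0.324) and Ehd2 (-0.081, 0.504), the next of the list by p, did not pass by edgeR. Caveolae are also known in fibroblasts and epithelial cells, whose part in these levels was not tested.

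In the angiopoietin and TIE list 1 of 6 genes fell. Angpt2, the ligand that endothelial cells release and that can block TIE2, had 6.19, 4.63 and 5.83 CPM in the combination libraries, 5.201, 5.10 and 4.73 with regorafenib, 7.21, 6.37 and 6.90 with anti-PD1, and 7.59, 7.16 and 8.68 with vehicle. All regorafenib-treated libraries were below all others, as in 1.77% of all tested genes. Angpt2 had a log2 fold change of -0.47 ± 0.108 (SE, adjusted p 0.0255 by edgeR). It was called in 5 of the 12 fits that leave out 1 library, and not when combination 2, regorafenib 3, anti-PD1 2, anti-PD1 3 or 1 of the 3 vehicle libraries was absent (adjusted p up to 0.0722). Dok2, an adaptor downstream of TIE2, had 0.71 (adjusted p 0.212) and Angpt4 -0.86 (adjusted p 0.327) by edgeR.

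Of 5 partners and relatives of CD93, 1 fell, Cd248, a lectin-like receptor of pericytes and fibroblasts (-1.30, adjusted p 0.0358 by edgeR), which was not called when combination 1, combination 2, regorafenib 1, anti-PD1 2, anti-PD1 3 or 1 of the 3 vehicle libraries was absent. Thbd (-0.23, adjusted p 0.338) and Clec14a (-0.32, adjusted p 0.338) did not pass by edgeR. Among the 9 genes of endothelial junctions 0 were called by edgeR, with 2 at an unadjusted p under 0.05, Jam3 (-1.02, adjusted p 0.0656) and Icam2 (-0.89, adjusted p 0.0801). Of 13 junction genes that epithelium shares, 1 fell, Cgnl1, which encodes a junction scaffold (-0.40, adjusted p 0.0210 by edgeR), and it was not called when combination 2, anti-PD1 2, vehicle 2 or vehicle 3 was absent. Afdn (0.21, adjusted p 0.207) and Cgn (0.17, adjusted p 0.317) did not pass by edgeR.

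The 16 endothelial transcription factors included the 1 list gene that rose. Nr2f2, the venous and lymphatic fate factor also known as COUP-TFII, had 64.2, 62.5 and 67.0 CPM in the combination libraries, 73.5, 68.1 and 59.7 with regorafenib, 50.5, 52.9 and 49.1 with anti-PD1, and 50.1, 49.95 and 59.01 with vehicle. All treated libraries were above all others, as in 2.87% of all tested genes, by the narrow margin between regorafenib 3 and vehicle 3. Nr2f2 had a log2 fold change of 0.34 ± 0.065 (SE, adjusted p 0.0146 by edgeR). The Nr2f2 level was above that of Cdh5 in every library, and which cells carried it was not tested. Nr2f2, Gpihbp1, Cavin2 and Cavin3 were called in all 12 fits that leave out 1 library. Sox7 (-0.60, adjusted p 0.0540) and Gata2 (0.73, adjusted p 0.0882) did not pass by edgeR. With anti-PD1, 0 of the 78 list genes were called by edgeR or DESeq2, with 3 at an unadjusted p under 0.05.

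**Figure D5:**
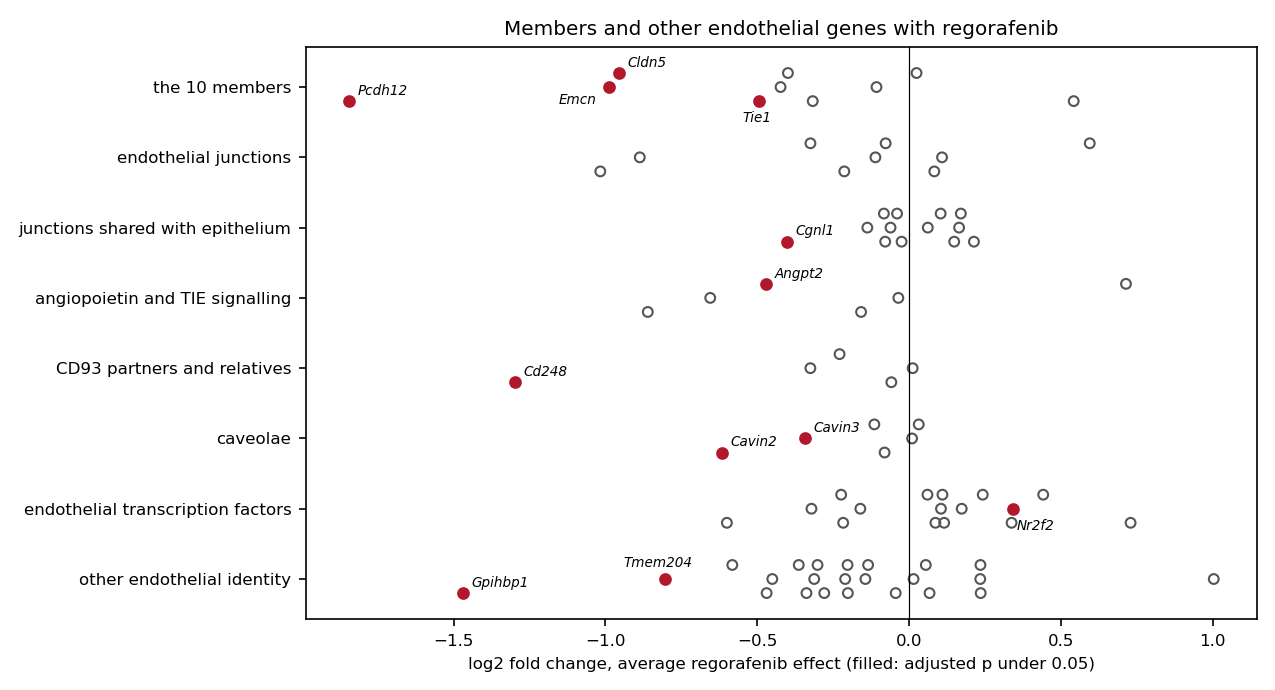
Log2 fold change in the average regorafenib effect (horizontal axis) of the 10 members and of the 78 tested genes of 7 other endothelial lists (rows), 1 point a gene, filled and named where the adjusted p by edgeR was under 0.05. Filled points left of 0 number 4 of 10 members and 7 of 78 list genes, and Nr2f2 is the filled point right of 0.

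Markers of other cells were measured beside these genes. In the average regorafenib effect by edgeR, 9.49% of all tested genes were called, 3.32% lower and 6.16% higher. Of 7 pericyte markers 2 were lower, with summed levels of 164 to 257 CPM in the regorafenib-treated libraries and 177 to 269 CPM in the others. Of 7 fibroblast markers 1 was lower, with a median of -1.24 over the list (log2 fold change). Their sums were 5231, 4099.7 and 11968 CPM in the combination libraries and 10264, 28604 and 4890 CPM with regorafenib. With anti-PD1 they were 5735, 28827 and 31279 CPM, and with vehicle 31240, 23000 and 29632 CPM. Of 7 lymphatic endothelial markers 1 was lower, with sums of 61.3 to 74.0 CPM with the drug and 66.7 to 89.97 CPM without it. The symbol Ccl21a matched 2 identifiers, and the 1 used for the sum had 0 counts throughout. Macrophage, neutrophil and T cell markers, cells that can carry Pecam1 or Cd93, had 0 genes called, with sums of 384 to 1079.7, 10.004 to 44.2 and 51.5 to 160.1 CPM with the drug and 551 to 1107, 8.89 to 25.9 and 59.2 to 162 CPM without it. The median log2 fold changes of these lists were 0.17, 1.33 and 0.39, in that order. Fat, skeletal muscle and red cell markers had 0 genes called. The skeletal muscle sum ran from 0.0846 CPM in regorafenib 1 to 211 CPM in combination 3. The part of all these cells in the members' levels was not tested.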

How the data were processed

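The deposited table holds raw read counts per Ensembl gene made by the authors, 1 column for each of the 12 samples, with 22591835 to 28209036 counts per library. The submitters' processing notes name cutadapt 2.4, STAR 2.7.2a and build GRCm38. Which program counted the reads, on which strand and against which annotation is not given in the sources used here. GENCODE M21 (GRCm38) supplied symbols, coordinates and exon lengths, and a symbol was found for 55227 of 55487 identifiers. No exon base of a member is shared with another annotated gene. The members had 12 to 1055 counts per library. For Pcdh12 the SD within groups was 0.251 on the log2 scale, against 0.276 from counting alone. For Pecam1 it was 0.323 against 0.0534, so depth was not the main limit on its precision.

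Genes were filtered with filterByExpr (minimum count 10, minimum total count 15) and tested with edgeR 4.0.16 under R 4.3.3 (quasi-likelihood, robust, TMM factors, 1 fit of 4 group means, 8 residual degrees of freedom), two-sided, with Benjamini-Hochberg adjustment over all 16974 genes of a comparison and a threshold of 0.05. Log2 CPM used a prior count of 2. Alternatives were DESeq2 1.42.0, RLE factors, no filter, the replicate number as a block, only the 6 libraries of a pair, and each library left out. DESeq2 was fitted to every gene with any count, not only to the 16974. On simulated data of the average regorafenib effect, with 50 genes changed by each fold over 16679 genes in the fit, edgeR recovered 38% of genes changed 1.5-fold, 68% at 2-fold, 94% at 3-fold and 98% at 5-fold, with 8 false calls. The changed genes averaged above 1 CPM, and counts were drawn independently for each gene. Variation that genes share between libraries was not simulated, so these rates may differ in the real data.

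The members and gene lists were chosen with earlier results of these data known. The genes named from the lists are those called in the average regorafenib effect and the next 2 by p in each list. Other genes named by likeness are the 5 closest to Pcdh12 and to Cdh5. Genes without a symbol, predicted or clone names, and immunoglobulin and T cell receptor segments were left out of that ranking. Promoter sequences are those of RefSeq (GRCm38.p6), which had entries for 4 of the 10 members.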

Additional observations from a re-analysis of the deposited data

How the results depend on the processing

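Under RLE factors each count of called members, list genes and all genes stayed within 1.5 times its value, and among member estimates the sign turned, under settings other than leaving out a library, only for Pecam1 in regorafenib over vehicle, which was near 0. DESeq2 called more: 2735 genes in the average regorafenib effect, against 1610 by edgeR, 1160 against 326 for the combination over anti-PD1, 386 against 1 for regorafenib over vehicle and 3 against 0 for anti-PD1. It called 6 members in the average regorafenib effect, against 4 by edgeR, with Cdh5 and Cd93 as the additions, 3 members for the combination over anti-PD1, 4 for regorafenib over vehicle, and 13 list genes against 8. Without a filter on low counts 959 genes were called in the average regorafenib effect and 6 for regorafenib over vehicle. With only the 6 libraries compared, 0 genes and 0 members were called in both pairwise comparisons.

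With the replicate number as a block, 504 genes, 3 members and 3 list genes were called in the average regorafenib effect, with Tie1 no longer called, and 0 genes and 0 members in both pairwise comparisons. The labels do not say whether same-numbered samples are related. Of 18 same-numbered pairs across groups 2 had deviations that correlated above 0.1, and 0 of 12 libraries correlated best with their own number. These r ran from -0.66 to 0.63 for the same number and from -0.50 to 0.53 for other numbers.

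With 1 library left out, the average regorafenib effect had 460 genes (without anti-PD1 2) to 2048 (without anti-PD1 1), 3 to 5 members and 4 to 9 list genes. The gene count fell below its value with all libraries by over 1.5 times when combination 1, combination 2, anti-PD1 2, anti-PD1 3 or 1 of the 3 vehicle libraries was absent. The combination over anti-PD1 had 0 to 432 genes and 0 to 1 members, with 0 of both when combination 2, anti-PD1 2 or anti-PD1 3 was absent, and regorafenib over vehicle 0 to 4 genes. Signs turned in 13 of 50 member estimates, none of them called by edgeR with all libraries. Those of the tested contrasts were, in the anti-PD1 effect, Pecam1 (-0.19 to 0.041) and Cd93 (-0.14 to 0.051), and, in the interaction, Pecam1 (-0.44 to 0.013), Cldn5 (-0.0018 to 0.36) and Cd93 (-0.28 to 0.078). The others were estimates of Pecam1, Tek, Plvap and Vwf in the regorafenib contrasts. The cause of these differences was not tested. Depth limits Pcdh12 most, at 12 to 80 counts per library.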

Other observations

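Selp, which encodes the adhesion molecule P-selectin that endothelial cells store together with von Willebrand factor, was looked at after the values of Vwf were seen. It had 0.884, 6.09 and 3.41 CPM in the combination libraries, 6.77, 2.02 and 2.69 with regorafenib, 1.65, 1.11 and 2.08 with anti-PD1, and 0.797, 2.07 and 3.24 with vehicle. The groups overlapped, and the average regorafenib effect was a log2 fold change of 1.00 ± 0.493 (SE) that did not pass (adjusted p 0.212 by edgeR).

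Icam2, which was among the genes most like Cdh5 over the 12 libraries, had 0.530, 1.95 and 1.56 CPM in the combination libraries, 1.44, 1.67 and 0.812 with regorafenib, 2.16, 2.92 and 2.73 with anti-PD1, and 2.01, 2.91 and 2.04 with vehicle. All 6 regorafenib-treated libraries were below the other 6, as in 1.77% of all tested genes, and the log2 fold change of -0.89 ± 0.294 (SE) did not pass (adjusted p 0.0801 by edgeR). The lowest Icam2 level was in combination 1.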
